A study of Caenorhabditis elegans with 8 samples.

Results

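The proteasome subunits of Caenorhabditis elegans were taken from the deposited gene table by name, as the protein-coding genes called pas, pbs, rpn or rpt followed by a number. The rule found 33 genes of the 46904 in the table. Of these, 14 encode the 20S core particle (7 of the alpha ring and 7 of the beta ring) and 19 encode the 19S regulatory particle (10 of its base and 9 of its lid). All 33 passed the filter on low counts, which left 10932 genes for testing. The names rest on the deposited table, and members of the complex with other names fall outside the rule. One of these, dss-1, is described with the genes around the proteasome.

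The study compared 4 libraries of worms grown on cpr-6 RNAi bacteria with 4 libraries of worms grown on bacteria with the empty vector (control RNAi). All worms were of the strain CL2006, labelled WT for genotype, a line whose transgene drives a human amyloid beta peptide from the body wall muscle promoter of unc-54, with rol-6 as its marker. Both groups therefore carried the transgene, were kept at 20 °C, had parents raised on the same bacteria and were collected at day 6 of adulthood after daily moves away from their progeny. cpr-6 encodes a cathepsin B protease of the lysosome, and each library was a pool of whole worms whose 3′ transcript ends were counted by CEL-Seq2. The series text states 4 biological repeats, and no label ties the pools to separate cultures, so the p-values here speak to the spread among the 8 libraries.

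The 26S proteasome degrades proteins that carry ubiquitin chains. In the 20S core, outer alpha rings hold a gated channel and inner beta rings hold the proteolytic sites, which belong to the subunits pbs-1, pbs-2 and pbs-5. The 19S particle caps the core. Its base, with a ring of RPT ATPases, unfolds the substrate and pushes it through the gate, and its lid holds the deubiquitinase rpn-11, which removes the chain. In C. elegans the transcription factor skn-1, in its endoplasmic reticulum form, raises transcription of proteasome genes when the proteasome is impaired, and raised rpn-6.1 expression is known to increase stress resistance and lifespan. The proteasome and the lysosome are the main routes of protein breakdown in the cell.

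Total counts were 8184412 to 10837163 in cpr-6 RNAi libraries and 9489866 to 12506320 in empty vector libraries. The targeted gene cpr-6 (WBGene00000786, chromosome X, 6607203 to 6609045, build WBcel235) had 79.5, 80.2, 65.6 and 101 CPM (counts per library size, with TMM scaling) in cpr-6 RNAi libraries and 749, 731, 773 and 780 CPM in empty vector libraries. It fell to 10.8% of its empty vector level (log2 fold change -3.22 ± 0.114 SE, adjusted p = 2.00e-10 in edgeR's quasi-likelihood test). It was the single gene that passed that test, which is 0.00915% of the genes tested. The library of cpr-6 RNAi replicate 4 stood apart from the other 7. Its mitochondrial share was 2.14% of counts, against 0.805% to 0.889% in the other cpr-6 RNAi libraries and 0.838% to 1.16% in empty vector libraries. Summed over 11 germline and oocyte markers, none of them at 0, it had 13289 CPM, against 18924 to 20281 CPM in the other cpr-6 RNAi libraries and 18313 to 19914 CPM in empty vector libraries. Body wall muscle markers, which mark the tissue that expresses the transgene, summed to 4994, 5076, 5439 and 6284 CPM in cpr-6 RNAi libraries and 3299.9, 3615, 5682 and 5439 CPM in empty vector libraries. Most of each sum was unc-54, with 3137 to 4290 CPM in cpr-6 RNAi libraries and 2056 to 3814 CPM in empty vector libraries. The transgene carries the unc-54 promoter and rol-6, a gene of the hypodermis list. Whether its reads entered the counts of unc-54 and rol-6 was not tested. In the body wall muscle sum, empty vector replicates 1 and 2 were the lowest 2 of the 8, while the other libraries overlapped between groups. The same was so for the summed markers of pharyngeal muscle, hypodermis and neurons. It was not so for those of intestine, sperm or germline, and the lowest intestine sum was in cpr-6 RNAi replicate 2. All 7 muscle markers had log2 fold changes above 0, with a median of 0.23. Of these, 0 of 7 passed the adjusted test in edgeR and 1, lev-11, had an unadjusted p under 0.05, against 3.85% of tested genes. None of the listed markers of muscle, intestine, hypodermis, germline, sperm and neurons was at 0 in the table.

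No proteasome subunit passed the test between cpr-6 RNAi and empty vector worms. The smallest adjusted p of the 33 was 0.997 in edgeR's quasi-likelihood test. At an unadjusted p under 0.05 the count was also 0 of 33 in edgeR, in DESeq2 and in limma voom, where 3.85% of tested genes passed in edgeR. Leaving out any single library, cpr-6 RNAi replicate 4 included, also left 0 of 33 at either threshold in edgeR. The log2 fold changes lay between -0.12 (pas-7) and 0.11 (rpt-1), with standard errors of 0.0683 to 0.147. Expressed as a fold, the subunit farthest from 1 in either direction differed 1.09-fold. The groups overlapped for all 33 subunits, and groups without overlap were found in 2.52% of tested genes.

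The intervals bound how large a difference these libraries could hide. With limma voom, the 95% interval of the fold change stayed within 1.5-fold in either direction (0.58 on the log2 scale) for 33 of 33 subunits, against 63.7% of tested genes. The lowest bound was -0.41, for rpn-6.2, and the highest was 0.33, for rpt-1. Without rpn-6.2, the lowest bound was -0.31. The median distance from the estimate to its bound was 0.17 on the log2 scale for the subunits, against 0.33 for all genes tested. These comparisons are with all tested genes, while 28 of the 33 subunits were in the top 10% of them by CPM. No comparison at like abundance was made for the intervals. Log2 fold changes were below 0 for 23 of the 33, against 49.8% of tested genes, and their median was -0.02, against 0.00058 over all genes tested. Without cpr-6 RNAi replicate 4 the number below 0 was 12, and without empty vector replicate 1 it was 15, so the sign of the majority turned with a single library.

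**Figure D1:**
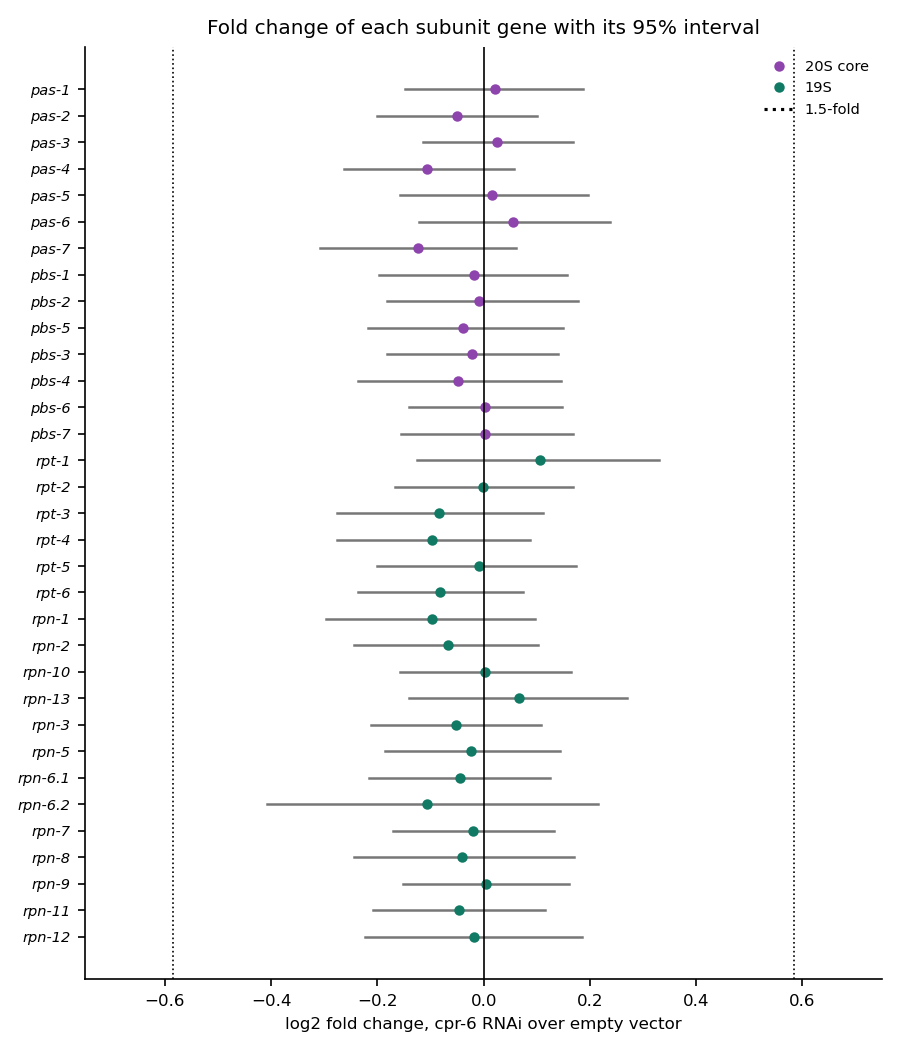
Log2 fold change of each of the 33 proteasome subunits, cpr-6 RNAi over empty vector (points, edgeR), with 95% intervals from limma voom (lines), grouped by role, with dotted lines at 1.5-fold. Estimates run from -0.12 to 0.11 and all 33 intervals stay between the dotted lines.

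In the alpha ring, which forms the gate of the core, 4 of 7 subunits had log2 fold changes above 0 and 3 had values below 0, with a median of 0.01. Its subunit pas-7 (chromosome II, 10098782 to 10099867) had 87.0, 86.0, 98.2 and 94.1 CPM in cpr-6 RNAi worms and 105, 99.5, 92.6 and 101 CPM in empty vector worms. The lowest 2 values belonged to cpr-6 RNAi replicates 1 and 2, and the groups overlapped. For pas-7 the estimate on the log2 scale was -0.12 ± 0.0866 (SE), its interval was -0.31 to 0.06, and its unadjusted p of 0.173 in edgeR's test across all genes was the smallest of all 33 subunits. Its gene overlaps lact-2 on the other strand, whose counts summed to 85.5% of those of pas-7, and without strand the reads of the pair cannot be told apart. The gate subunit pas-3 (chromosome I, 5105110 to 5106204), whose yeast counterpart keeps the channel closed, had 1117, 1048, 1061 and 1116 CPM in cpr-6 RNAi worms and 1127, 1092, 998 and 1049 CPM in empty vector worms. Every one of its cpr-6 RNAi values lay inside the range of its empty vector values. Its log2 fold change was 0.03 ± 0.0683 (SE), with an interval of -0.11 to 0.17. The remaining alpha subunits pas-1, pas-2, pas-4, pas-5 and pas-6 had log2 fold changes from -0.11 (pas-4) to 0.06 (pas-6).

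The 3 catalytic beta subunits, which cut the substrate, had log2 fold changes within 0.04 of 0. Their levels differed at most 1.51-fold in CPM per kb of coding sequence and 1.29-fold in CPM. For pbs-1 (chromosome IV, 1708804 to 1709745), which carries the caspase-like site, there were 697, 709, 713 and 569 CPM in cpr-6 RNAi worms and 721, 654, 659 and 687 CPM in empty vector worms. Replicate 4 was the lowest of all 8 libraries here, and the other cpr-6 RNAi values lay within the empty vector range. The trypsin-like subunit pbs-2 (chromosome I, 12967216 to 12968280) had 544, 567, 551 and 486 CPM in cpr-6 RNAi worms and 598, 527, 558 and 478 CPM in empty vector worms. In its case the lowest and the highest library were both empty vector libraries. The chymotrypsin-like subunit pbs-5 (chromosome I, 14719167 to 14720477) had 516, 572, 520.0 and 467 CPM in cpr-6 RNAi worms and 602, 492, 537 and 500.3 CPM in empty vector worms. Its cpr-6 RNAi replicate 4 was lowest and empty vector replicate 1 highest, with the others between. Log2 fold changes were -0.02 ± 0.0829 for pbs-1, -0.01 ± 0.0841 for pbs-2 and -0.04 ± 0.0865 for pbs-5 (SE), and the intervals were -0.20 to 0.16, -0.18 to 0.18 and -0.22 to 0.15 in the same order.

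Among the 4 beta subunits without a proteolytic site, which complete the ring, the fold change of pbs-4 (chromosome I, 3908747 to 3909701) was the farthest from 0. It had 199.7, 228, 197 and 191 CPM in cpr-6 RNAi worms and 238, 195, 202 and 208 CPM in empty vector worms, with the lowest value in cpr-6 RNAi replicate 4, the highest in empty vector replicate 1 and groups that overlapped. The log2 fold change of pbs-4 was -0.05 ± 0.0900 (SE), and counts of mrrf-1, which overlaps it on the other strand, came to 15.4% of its own. The log2 fold changes of the other subunits were -0.02 for pbs-3, 0.00279 for pbs-6 and 0.00245 for pbs-7. The median of the 4 was -0.01, with 2 above 0 and 2 below.

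The 6 RPT ATPases, which unfold the substrate, had a median log2 fold change of -0.05, with 1 above 0 and 5 below. Of tested genes, 49.8% lay below 0. Without cpr-6 RNAi replicate 4, rpt-2 (0.04) and rpt-5 (0.07) were also above 0, while rpt-3, rpt-4 and rpt-6 stayed below. Among the ATPases, rpt-4 (chromosome II, 42181 to 46216) had 308, 315, 290.4 and 258 CPM in cpr-6 RNAi worms and 337, 324, 299.7 and 293 CPM in empty vector worms. Replicate 4 of cpr-6 RNAi was lowest, empty vector replicate 1 was highest, and the groups overlapped. With a log2 fold change of -0.10 ± 0.0857 (SE), it had the smallest p of the ATPases, and its interval was -0.28 to 0.09. It overlaps nfyc-1 on the other strand, whose counts came to 30.3% of its own. The ATPase above 0 with all libraries kept was rpt-1 (chromosome V, 11980502 to 11982450), described here because it held the highest bound of all intervals. It had 250.5, 335, 281 and 242 CPM in cpr-6 RNAi worms and 293, 253, 250.1 and 235 CPM in empty vector worms. The value of cpr-6 RNAi replicate 2 exceeded all others, and the remaining 7 libraries mixed between groups. On the log2 scale rpt-1 differed by 0.11 ± 0.106 (SE), with an interval of -0.13 to 0.33. For rpt-2, rpt-3, rpt-5 and rpt-6 the log2 fold changes were -0.00174, -0.08, -0.01 and -0.08.

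The base also holds the scaffolds rpn-1 and rpn-2 and the ubiquitin receptors rpn-10 and rpn-13. The scaffold rpn-1 (chromosome IV, 6906415 to 6909913) had 193, 188, 186 and 151 CPM in cpr-6 RNAi worms and 198, 182, 203 and 186 CPM in empty vector worms. The low value of cpr-6 RNAi replicate 4 stood below the other 7, which overlapped. The log2 fold change of rpn-1 was -0.10 ± 0.0918 (SE), with an interval of -0.30 to 0.10. The receptor rpn-10 (chromosome I, 10730712 to 10732448), the most abundant 19S subunit per length, had 819.7, 823, 806 and 705 CPM in cpr-6 RNAi worms and 845, 789, 783 and 734 CPM in empty vector worms. Apart from the low cpr-6 RNAi replicate 4, its cpr-6 RNAi values lay inside the empty vector range, and its log2 fold change was 0.00199 ± 0.0764 (SE), with an interval of -0.16 to 0.16. The log2 fold changes of rpn-2 and rpn-13 were -0.07 and 0.07. The count of rpn-13 is uncertain, because let-767 overlaps it on the same strand with 256% of its counts.

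The lid had 1 subunit with a log2 fold change above 0 and 8 below, with a median of -0.04, while 49.8% of tested genes lay below 0. Without cpr-6 RNAi replicate 4 the median of the lid was 0.01. Its deubiquitinase rpn-11 (chromosome II, 4043059 to 4044330) had 418, 439, 422 and 379 CPM in cpr-6 RNAi worms and 458, 399, 426 and 430.3 CPM in empty vector worms. The lowest value was that of cpr-6 RNAi replicate 4 and the highest that of empty vector replicate 1, with the rest interleaved. Its log2 fold change was -0.05 ± 0.0773 (SE), with an interval of -0.21 to 0.12. For rpn-6.1 (chromosome III, 6959110 to 6962027), a scaffold that joins lid and core, there were 363, 367, 345 and 303 CPM in cpr-6 RNAi worms and 338, 372, 352 and 358 CPM in empty vector worms. Only replicate 4 of cpr-6 RNAi lay outside the empty vector range, and rpn-6.1 had a log2 fold change of -0.04 ± 0.0810 (SE) and an interval of -0.22 to 0.13. Its paralogue rpn-6.2 (chromosome III, 8999828 to 9001973) had 10.98, 10.2, 9.92 and 10.3 CPM in cpr-6 RNAi worms and 10.5, 10.98, 13.5 and 9.59 CPM in empty vector worms. This was the least abundant subunit of all, with a single high library, empty vector replicate 3, and groups that overlapped. Its log2 fold change was -0.11 ± 0.147 (SE), and its interval, -0.41 to 0.22, was the widest of the 33. Per kb of coding sequence rpn-6.1 stood 30.9-fold above rpn-6.2, and how reads shared by the pair were counted is not given. The other lid subunits rpn-3, rpn-5, rpn-7, rpn-8, rpn-9 and rpn-12, most of them scaffolds, had log2 fold changes from -0.05 (rpn-3) to 0.00410 (rpn-9).

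**Figure D2:**
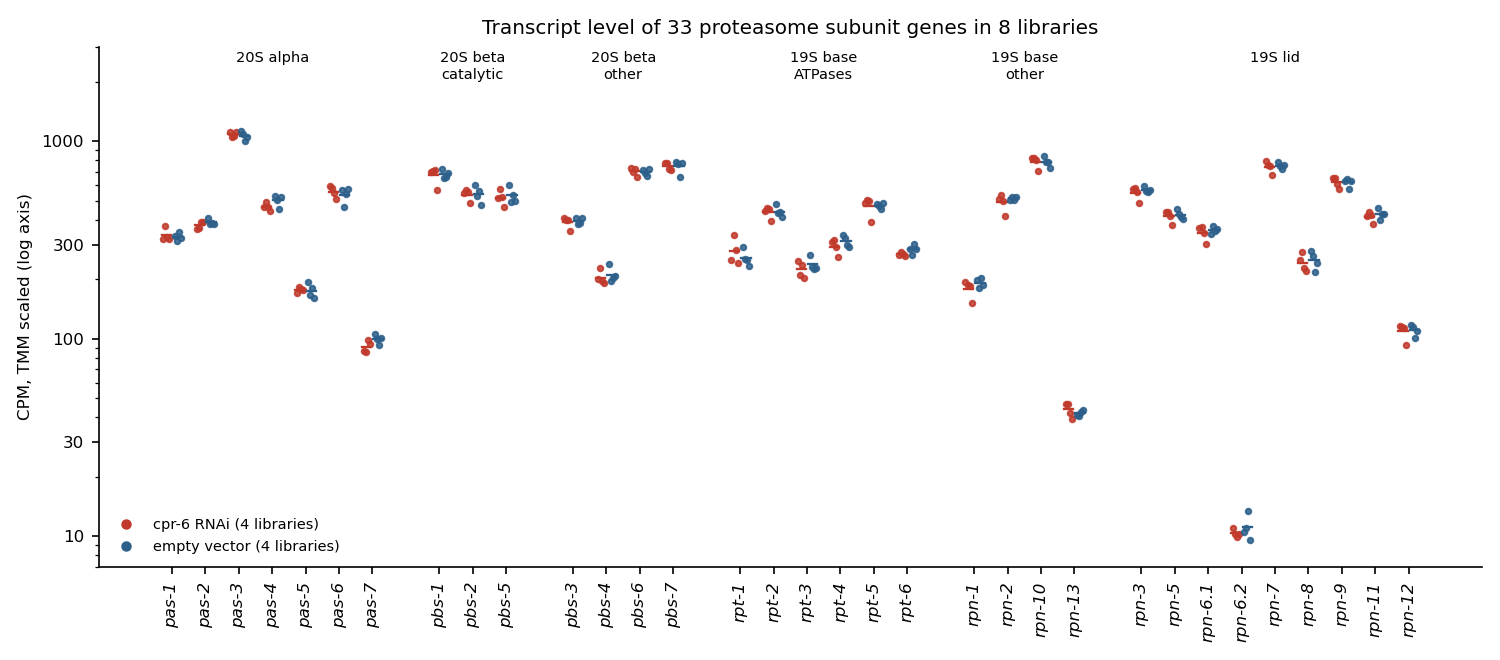
CPM of each proteasome subunit on a log scale, with 1 point per library (cpr-6 RNAi and empty vector side by side for each gene), a short bar at each group's mean, and the subunits grouped by role. Points of the groups overlap for all 33 subunits, and rpn-6.2, near 10.7 CPM, lies far below the rest.

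Levels of different subunits were compared as mean CPM over the 8 libraries per kb of coding sequence. On that scale the median of the 20S subunits was 641 and that of the 19S subunits was 249, a ratio of 2.57, and 12 of 14 core subunits lay above the 19S median. The catalytic beta subunits had a median of 648, the other beta subunits 776 and the alpha subunits 551. In CPM, without division by length, these medians were 539, 548 and 382 in the same order. Within the alpha ring, whose members are present in equal number in the assembled particle, pas-3 (1435) stood 11.3-fold above pas-7 (127). The level of pas-7 is uncertain, because lact-2 overlaps it on the other strand. The ATPases, also equal in number in the particle, had a median of 235 and a range of 1.96-fold, from 186 (rpt-3) to 365 (rpt-5). The base scaffolds and receptors ran from 35.2 (rpn-13) to 759 (rpn-10), and the lid from 8.61 (rpn-6.2) to 609 (rpn-7). The level of rpn-13 is uncertain too, because of its overlap with let-767. Because CEL-Seq2 counts 3′ ends, division by coding length lowers the level of long genes, and without it the ratio of the 20S median to the 19S median was 1.44 in CPM and 10 of 14 core subunits lay above the 19S median. The subunits were among the most abundant transcripts, with 28 of 33 in the top 10% of tested genes by CPM. Together they took 1.37%, 1.44%, 1.38% and 1.28% of counts in cpr-6 RNAi libraries and 1.46%, 1.39%, 1.39% and 1.37% in empty vector libraries.

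The balance between core and cap was taken as the mean log2 CPM of the 20S subunits minus that of the 19S subunits in each library. It was 0.58, 0.60, 0.64 and 0.72 in cpr-6 RNAi libraries and 0.65, 0.58, 0.60 and 0.65 in empty vector libraries. The highest value was that of cpr-6 RNAi replicate 4, and the other 7 values were mixed between groups. Means were 0.64 ± 0.06 in cpr-6 RNAi worms and 0.62 ± 0.04 in empty vector worms (SD, n = 4 each). Their difference of 0.01 was smaller than the spread within either group, and without cpr-6 RNAi replicate 4 it was -0.01. Median log2 fold changes were -0.01 for the 20S core, -0.04 for the 19S base and -0.04 for the lid. Without cpr-6 RNAi replicate 4 these medians were 0.02, 0.02 and 0.01.

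Variation between libraries ran through many subunits at once. Summed over the 33, there were 14177, 14399.9, 13898 and 12662 CPM in cpr-6 RNAi libraries and 14724, 13776, 13536 and 13829.5 CPM in empty vector libraries. The highest sum, in empty vector replicate 1, was 1.16 times the lowest, in cpr-6 RNAi replicate 4, and the groups overlapped. The cpr-6 RNAi replicate 4 library was the lowest of the 8 for 22 of 33 subunits (66.7%) and the highest for 0. Among tested genes it was the lowest for 28.8% and the highest for 29.9%. By particle, it was lowest for 16 of 19 subunits of the 19S particle and 6 of 14 of the 20S core. In that library the 19S sum was 86.9% and the 20S sum 93.5% of the mean of the other 7 libraries. In the same library the germline and oocyte marker sum was 69.2% of the mean of the others and the mitochondrial share was the highest of all, and their part in the low proteasome values was not tested. In pools of whole worms, fewer cells of a type and less RNA per cell cannot be told apart. Empty vector replicate 1 was the highest library for 19 of 33 subunits (57.6%), while it was highest for 12.4% of tested genes.

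**Figure D3:**
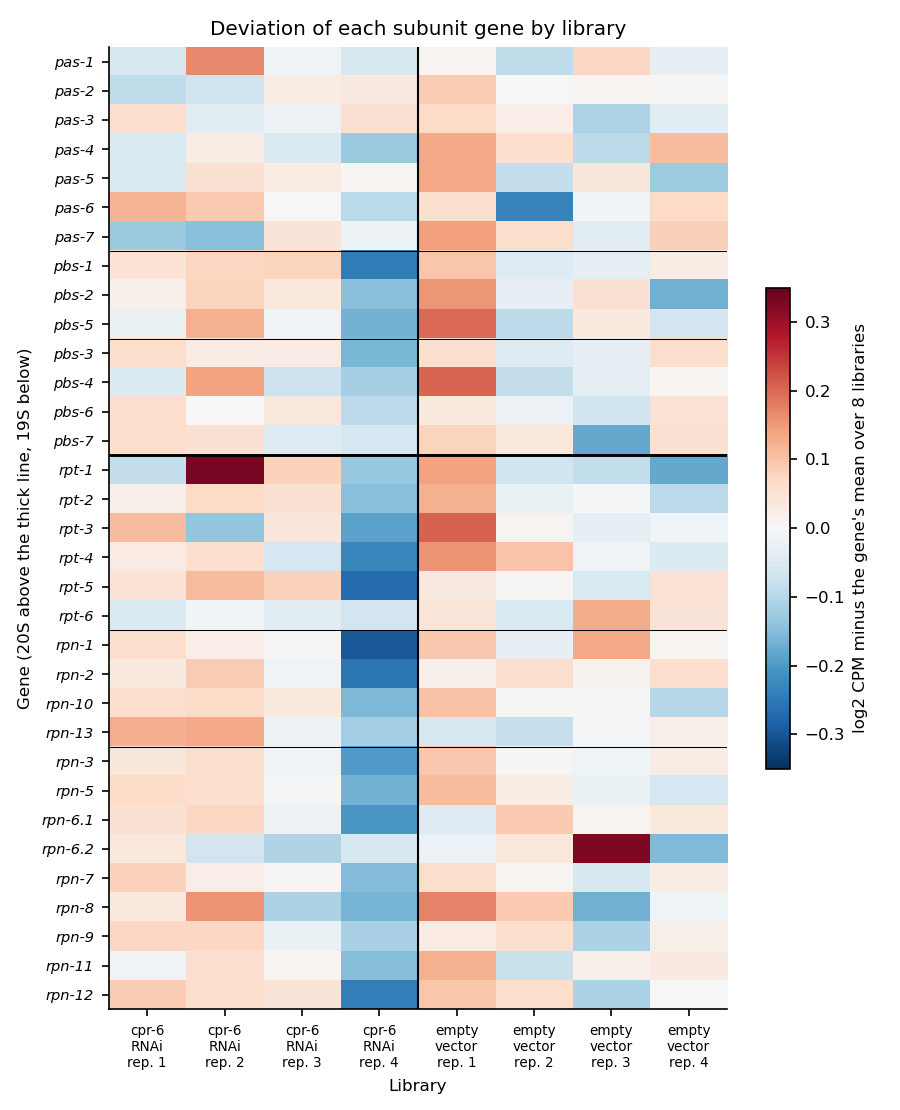
Deviation of each subunit (running down, by role) in each library (running across, with cpr-6 RNAi on the left) from its mean log2 CPM over the 8 libraries, in log2 units by colour. Replicate 4 of cpr-6 RNAi is below the mean for 30 of 33 subunits and empty vector replicate 1 is above it for 30 of 33.

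**Figure D4:**
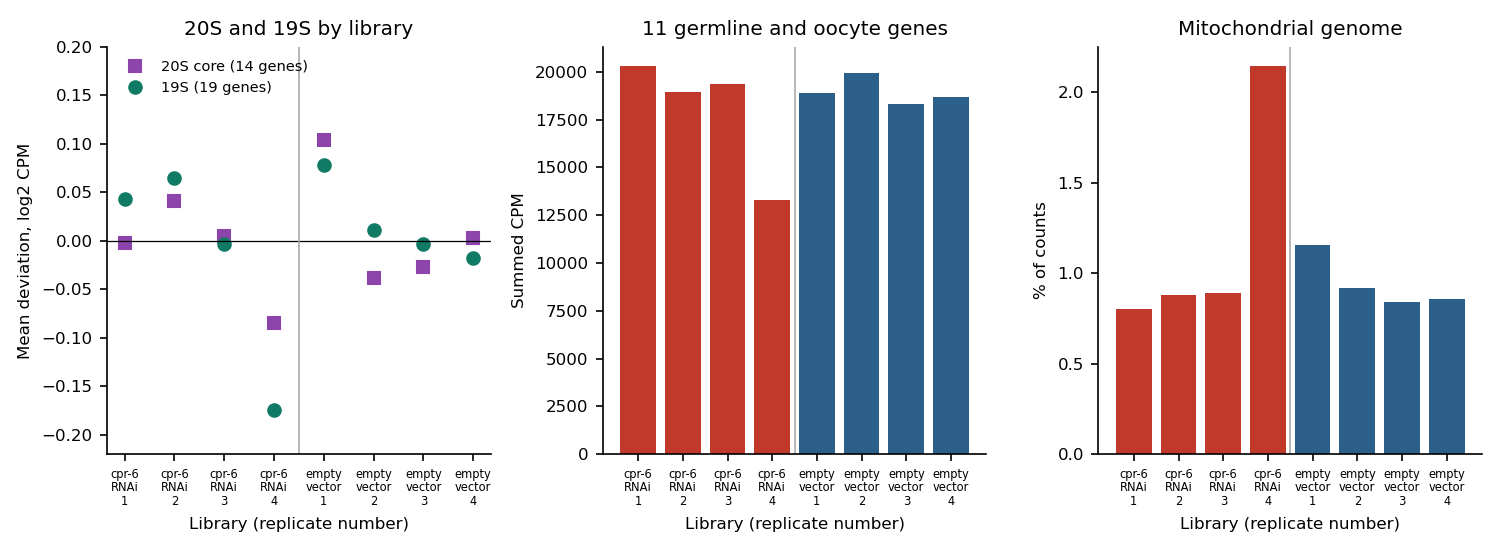
Left panel, mean deviation of the 20S subunits (squares) and the 19S subunits (circles) from their means over the libraries, in log2 CPM. Middle panel, summed CPM of 11 germline and oocyte genes. Right panel, mitochondrial share of counts in percent, with cpr-6 RNAi libraries left of empty vector libraries in each panel. In cpr-6 RNAi replicate 4 the 19S subunits average 0.17 below their mean and the 20S subunits 0.09 below it on the log2 scale, beside the lowest germline marker sum of 13289 CPM.

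As a description of how the subunits moved across libraries, the median Pearson r over pairs of subunits, across the 8 libraries, was 0.642 for the 171 pairs of the 19S particle and 0.242 for the 91 pairs of the 20S core. It was 0.577 for the 28 pairs of the CCT chaperonin, a complex unrelated to the proteasome, and -0.006 for all tested genes. These values share the libraries and their scaling, and those of the 19S particle and CCT rested largely on a single library. Without cpr-6 RNAi replicate 4 the median was 0.268 for the 19S particle, 0.262 for the 20S core, 0.2 for CCT and -0.001 for all tested genes.

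Within groups the subunits had a lower median spread than all tested genes. The within-group coefficient of variation of CPM had a median of 6.49% over the 33 subunits, against 14.9% over all tested genes. Variation falls with abundance, so the 28 subunits in the top 10% by CPM were also set beside the 1094 tested genes there, a comparison added after seeing the data. The median was 6.51% for those subunits and 8.27% for the genes of the top 10%, and 21 of the 28 lay below 8.27%. Median CPM still differed, at 455 for the subunits and 344 for those genes. The steadiest was pas-2 at 3.73% and the most variable was rpt-1 at 12.8%, while counting alone would give a median of 1.51%. No test was made of this difference in spread.

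**Figure D5:**
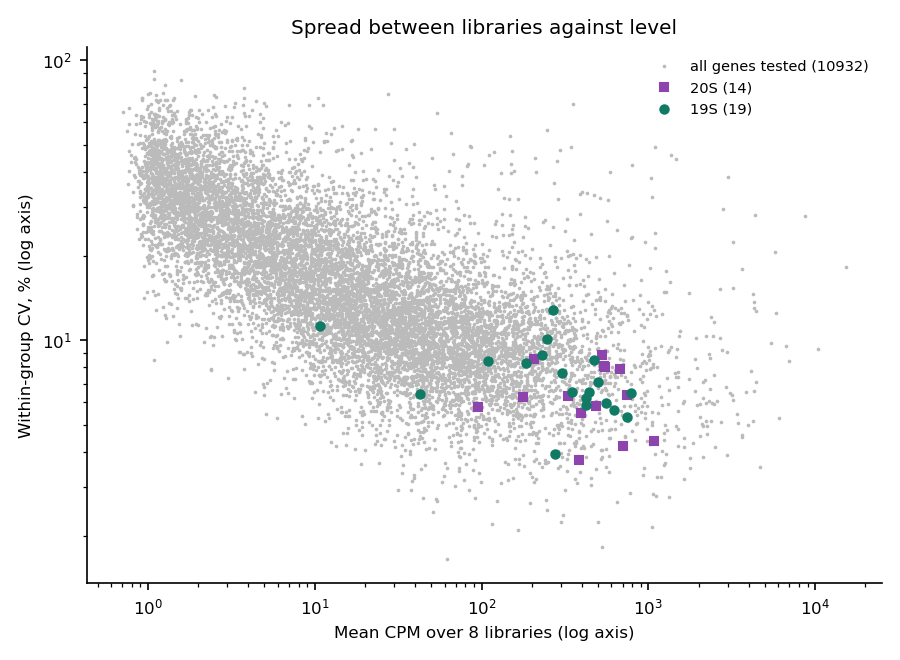
Within-group coefficient of variation in percent against mean CPM over the 8 libraries, both on log axes, for all tested genes (small points), the 20S subunits (squares) and the 19S subunits (circles). The subunits lie between 3.73% and 12.8%, and all but rpn-6.2 (10.7 CPM) have a mean of 42.9 CPM (rpn-13) or more.

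The treatment effect was also compared between replicates 1 and 2 and replicates 3 and 4, a division known from earlier results of these data and given by no label. The difference passed the adjusted threshold in edgeR's quasi-likelihood test for 0 of 33 subunits and for 0.0% of tested genes. At an unadjusted p under 0.05 there were 0 of 33 subunits and 418 tested genes. The smallest unadjusted p among subunits was 0.129, for pas-6.

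The subunit genes lie on chromosomes I (10), II (7), III (8), IV (3) and V (5). None of the 33 lies on X, which holds 13.996% of tested genes. By position, 13 of the 33 overlap another gene in the deposited table, 11 of them on the other strand and 2 on the same strand. The counts of those partners were small beside most subunits, and the larger shares are the ones given above and that of B0205.12, on the other strand of rpn-10, at 9.01%.

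Genes that act around the proteasome were read from lists by role. Of the factors that bind or assemble it, 5 of 10 listed names were tested, 0 passed the adjusted test and 1 had an unadjusted p under 0.05, against 3.85% of tested genes. This was dss-1, whose human and yeast counterparts are a small subunit of the lid. It had 243, 261, 231 and 215 CPM in cpr-6 RNAi worms and 213, 184, 206 and 203 CPM in empty vector worms. All 4 cpr-6 RNAi values lay above the 4 empty vector values, and groups without overlap made up 2.52% of tested genes. Means were 238 ± 19.3 CPM in cpr-6 RNAi worms and 201 ± 12.6 CPM in empty vector worms (SD, n = 4 each). In edgeR dss-1 had a log2 fold change of 0.24 ± 0.0859 (SE), an unadjusted p of 0.0137 and an adjusted p of 0.997, so it did not pass, and its interval was 0.06 to 0.42. The deubiquitinase ubh-4, which binds the particle, had a log2 fold change of 0.08 ± 0.112.

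Over all tested genes, 0.00915% passed the adjusted threshold and 3.85% the unadjusted one in edgeR. At those shares, a count of 0 in any list this short says little. In the route that activates skn-1 at the endoplasmic reticulum, 0 of 6 genes passed the adjusted or the unadjusted threshold in edgeR. Of these, 1 was above 0 and 5 below, with a median of -0.04, while 49.8% of tested genes lay below 0. The ubiquitin ligase sel-11 had a log2 fold change of -0.10 ± 0.113, and the glycanase png-1, which edits the skn-1 protein, had -0.13 ± 0.185. Among the CDC-48 segregase and the shuttles that carry ubiquitinated proteins, 12 of 13 were tested and 0 passed either threshold, with a median of -0.04. The smallest p values of that list were those of ufd-1 (-0.12 ± 0.0941) and ufd-2 (-0.12 ± 0.104). The 3 genes of ubiquitin and its activating enzyme also passed neither threshold. Here ubq-2 had 0.06 ± 0.0638 and ubq-1, the polyubiquitin gene, had -0.05 ± 0.0823.

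The COP9 signalosome and eIF3, which are built like the proteasome lid, and the CCT folding complex were read in the same way. The shares over all tested genes were again 0.00915% at the adjusted threshold and 3.85% at the unadjusted one. For the COP9 signalosome, which removes a ubiquitin-like tag from cullins, 6 of 8 listed names matched a gene. All 6 were tested, 0 passed either threshold and the median was -0.02. Its smallest p values were those of csn-2 (-0.19 ± 0.133) and csn-4 (-0.25 ± 0.211). For the translation initiation factor eIF3, 12 of 14 listed names matched a gene. All 12 were tested, 0 passed either threshold and the median was -0.05, with eif-3.H (-0.14 ± 0.0829) and eif-3.B (-0.09 ± 0.0826) at the smallest p. Of the 8 CCT subunits, 0 passed the adjusted test and 1, cct-3, had an unadjusted p under 0.05, against 3.85% of tested genes. It had 80.4, 80.3, 96.6 and 77.7 CPM in cpr-6 RNAi worms and 114, 102, 113 and 99.97 CPM in empty vector worms. All 4 cpr-6 RNAi values lay below the 4 empty vector values, which with either direction counted was so for 2.52% of tested genes. In edgeR cct-3 had a log2 fold change of -0.36 ± 0.0958 (SE), an unadjusted p of 0.00192 and an adjusted p of 0.997, so it did not pass. The median of the 8 was -0.0023, and cct-8 had -0.11 ± 0.0914.

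In the authors' deposited table, the log2 fold changes of the 33 subunits lay between -0.14 and 0.09. Their lowest unadjusted p in the authors' deposited table was 0.179. Of the 33, 28 lay below 0 there, and the share below 0 over all genes of that comparison was not counted. It rests on the same 8 libraries. In the edgeR fits here the number below 0 was 23 with TMM scaling, 27 with RLE scaling, and 12 without cpr-6 RNAi replicate 4. With DESeq2 here the number was 27.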

How the data were processed

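The members and gene lists were chosen with earlier results of these data known. Whole-worm pools of 4 cpr-6 RNAi and 4 empty vector samples were grouped by their treatment labels. The authors deposited 1 table with whole-number counts per gene for each library, per the file headers, beside their own normalized values and comparison. The submitters' processing notes list the build WBcel235 and the tools DESeq2 1.30.1, HTSeq 0.12.4, TopHat2 2.1.1 and cutadapt 2.10. Settings, annotation release, strand and molecular identifiers are not given in these sources. Amplified copies may therefore enter the counts, and overlapping genes may share reads. Counting noise covers counting error only.

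The test was edgeR's robust two-sided quasi-likelihood test (version 4.0.16 in R 4.3.3) of treatment alone, with TMM scaling, over the 10932 genes that filterByExpr kept at a minimum count of 10. Adjustment was by Benjamini and Hochberg, with a threshold of 0.05. The tests were checked on simulated data. CPM values use TMM library sizes, levels on the log2 scale have a prior count of 2, and 95% intervals come from limma 3.58.1 voom. Coding lengths come from Ensembl release 115 by gene identifier. Its positions equal those of the deposited table for 12 of the 33 subunits, so the positions printed are those deposited. Each pair of libraries within a group differed beyond sampling noise (chi-square over degrees of freedom 6.00 to 29.8). Full values are given for the smallest p of each role group, the catalytic beta subunits, rpn-6.1, rpn-6.2, rpn-10 and rpn-11. They are also given for the most and least abundant subunit of each particle. For the 2 smallest p of each pathway list the log2 fold change is given, with library values for dss-1 and cct-3 only. The subunit rpt-1 falls outside these rules and was chosen after its values were seen. Names in any gene list that matched no gene symbol in the table were not used. As alternatives, the scaling and the filter were changed, DESeq2 1.42.0 and voom were run, a replicate block was added, replicates 1 and 2 were set against 3 and 4, and each library was left out.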

Additional observations from a re-analysis of the deposited data

Results flagged for a closer look

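In 6 of the 72 groups of 4 libraries examined (the 33 subunits, the summed CPM of each particle and the 20S minus 19S level), 1 library lay far from the other 3 of its group (Dixon's criterion). Chance gives about 1 in 20 for a single group, but these groups share the same libraries and subunits, so they are not independent. Of the 6, 3 fell in cpr-6 RNAi replicate 4. There pbs-1 had 569 CPM against 697 to 713 CPM in the other cpr-6 RNAi libraries, rpn-10 had 705 CPM against 806 to 823 CPM, and rpn-12 had 92.5 CPM against 113 to 116 CPM. In empty vector replicate 1, pas-2 had 406 CPM against 382 to 383 CPM in the other empty vector libraries, and rpt-3 had 266 CPM against 225 to 232 CPM. In empty vector replicate 3, pbs-7 had 658 CPM against 764 to 786 CPM.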

How the results depend on the processing

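In each of 18 alternative fits, 0 of 33 subunits passed the adjusted test, and the smallest adjusted p of a subunit in any of them was 0.356 (edgeR, pas-7, replicates 1 and 2 alone, log2 fold change -0.24, unadjusted p = 0.0194). Of 594 subunit fold changes under alternatives, 580 moved by less than 1 standard error. Genes called numbered 28 without a low-count filter, 5 with DESeq2, 121 with replicates 1 and 2 alone and 1 to 3 with each library left out, against 1 as reported. The number of subunits below 0, counted after seeing the data, was 12 to 28 with each library left out, against 23. Subunits without overlap between groups numbered 0 to 2 with each library left out, against 3.68% to 6.36% of tested genes (2 of 33 is 6.06%, against 6.101% of tested genes, without empty vector replicate 3). They numbered 8 (24.2%) in replicates 1 and 2 alone, against 38.4% of tested genes, and 10 (30.3%) in replicates 3 and 4 alone, against 25.9%. The share of tested genes without overlap also rose with fewer libraries. The cause of these shifts was not tested. With the replicate number as a block, 2 genes were called, the 20S minus 19S difference was 0.01 and no subunit call changed. Deviations of same-numbered libraries correlated at -0.03 to 0.25, and not every library correlated best with its own number. With 4 libraries a group, the intervals limit what could be seen for rpn-6.2 most.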
